A study of Mus musculus with 9 samples.

Results

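The genes examined were 50 DNA replication genes of RAW264.7 cells, a mouse macrophage-like line established from a leukaemia and dividing in culture. Members were the rows of the deposited expression table whose Ensembl identifier carries 1 of 50 listed symbols in GENCODE M21. All 50 had a row, out of 28137 identifiers in the table. The cells carried 1 of 3 small interfering RNAs (siRNAs), with 3 libraries a group: a negative control (NC siRNA), an siRNA against SFRP2, a secreted protein that binds Wnt ligands, or an siRNA against RAB6A, a small GTPase of Golgi traffic. Per the labels, 60 nM siRNA was left on the cells for 6 h, and after 12 h in complete medium lipopolysaccharide (LPS, 100 ng/ml) was added to all 3 groups for 24 h, so that no unstimulated cells entered any comparison. The methods text of the study gives another siRNA concentration and adds interferon-gamma to LPS, and the labels were followed here. The titles of all 9 samples also carry the mark 6H, which the labels do not explain and which is not the LPS time of their protocol. All libraries came from a single cell line. The study's supplement lists 3 siRNAs beside the control, named siRNA-1 to siRNA-3 without their target, and the titles of the 3 SFRP2 siRNA samples carry the same names. It is not stated if those 3 samples differ in siRNA, so their spread may be that between cultures or that between siRNAs, and no sequence of the RAB6A siRNA was found in the sources used here. The labels number the libraries of a group but do not say that they came from separate cultures, so p-values measure only the spread between these libraries, which may be technical. In bulk RNA, a smaller share of cells in S phase and less RNA of these genes per cell cannot be told apart.

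DNA replication starts where the origin recognition complex (Orc1 to Orc6) sits on DNA and, with Cdc6 and Cdt1, loads the ring-shaped MCM helicase (Mcm2 to Mcm7), a step called licensing. Cdc45, the GINS complex and Mcm10 switch the helicase on, polymerase alpha with primase starts each strand, and polymerases delta and epsilon extend it while held by the Pcna clamp, which the RFC complex opens and closes. Many of these genes are transcribed at the G1 to S transition under E2F transcription factors, among which E2f1 and E2f2 are activators and E2f7 and E2f8 repressors, and their RNA is low in cells that have left the cycle.

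Values were FPKM (fragments per kilobase, scaled to the mapped fragments of each library), and whole reads behind them could be recovered at 32758733 to 47149263 per library. The reads came out whole with the length of all annotated exons of a gene merged, which can exceed that of its RNA. Orders, shares and ratios between genes below therefore depend on the annotation too. Within a single gene the 50 members had between 30 reads (Fen1 in a RAB6A siRNA library) and 11916 reads (Pcna in an NC siRNA library). Rab6a, the target of 1 siRNA, stood at 24.3, 27.3 and 25.5 FPKM in the NC siRNA libraries and at 21.2, 20.7 and 20.4 FPKM in the RAB6A siRNA libraries, a log2 fold change of -0.31 (SE 0.060, adjusted p = 0.0024, limma). In that comparison 36.5% of all genes were called lower, so a call of this kind does not by itself show a knockdown. Sfrp2, the other target, had 2 to 4 reads in each of the 9 libraries, too few for its knockdown to be checked in this table. Of 10 macrophage markers all but Mertk exceeded 1 FPKM, and the 10 summed to 4582 to 5050 FPKM in NC siRNA, 4054 to 4383 FPKM in SFRP2 siRNA and 3979 to 4142 FPKM in RAB6A siRNA. Of the 9 tested in RAB6A siRNA against NC siRNA, 4 fell (Lyz2, Csf1r, Spi1 and Fcgr1) and 1 rose (Ptprc), where 36.5% of all genes fell and 37.6% rose. Of 9 markers of other cell types 8 were under 1 FPKM in all 9 libraries, the 9 summed to 1.67 to 2.70 FPKM in NC siRNA, 2.16 to 2.60 FPKM in SFRP2 siRNA and 2.14 to 3.07 FPKM in RAB6A siRNA, and of the 2 tested Pecam1 rose in RAB6A siRNA (0.459 to 0.495 against 0.782 to 0.902 FPKM). The part of these marker genes in the differences below was not tested.

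The first comparison asked how the replication genes stood in cells given RAB6A siRNA against those given NC siRNA. Of the 50 members, 44 fell and 4 rose (Orc3, Orc4, Gins3 and E2f2), by limma on log2(FPKM + 0.1) with Benjamini-Hochberg adjustment over all 12712 genes tested, and Orc5 and Rfc2 did not pass the test. Among all genes tested, 36.5% fell and 37.6% rose, so a call in itself was common in this comparison. With the further requirement of a log2 fold change beyond 1 in size, the thresholds of the study's methods, 25 of 50 members fell against 12.8% of all genes, and 0 of 50 rose against 17.3%. All 3 RAB6A siRNA libraries lay below all 3 NC siRNA libraries for 44 members (38.2% of all genes) and above them for 4 (39.2%). The median log2 fold change of the members was -1.04, beside 0.03 over all genes tested, and single members ranged from -2.31 (E2f8) to 0.89 (Gins3).

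**Figure D1:**
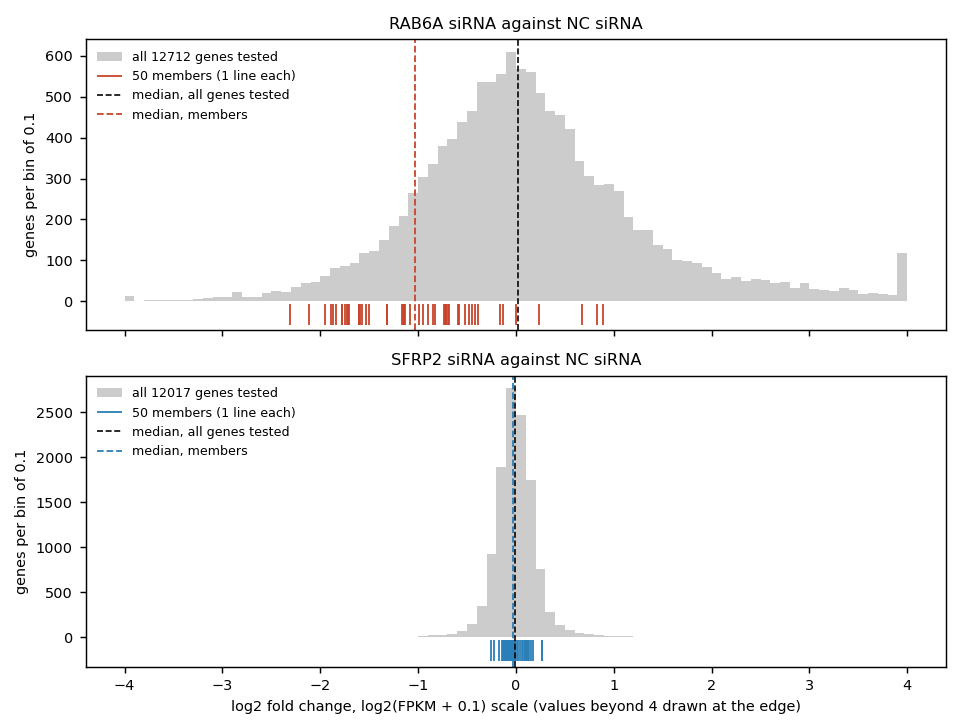
Number of genes (vertical axis) by log2 fold change on the log2(FPKM + 0.1) scale (horizontal axis, values beyond 4 drawn at the edge) for RAB6A siRNA against NC siRNA (top) and SFRP2 siRNA against NC siRNA (bottom), with 1 coloured line for each of the 50 members under the grey histogram of all genes tested. In the top panel the dashed median of the members sits at -1.04 and that of all genes at 0.03; in the bottom panel they sit at -0.03 and -0.01.

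Summed over the 50 members, the level was 805 to 836 FPKM in the NC siRNA libraries, 792 to 805 FPKM in SFRP2 siRNA and 391 to 430 FPKM in RAB6A siRNA. In NC siRNA the members of highest FPKM were Pcna (108 ± 2.52 FPKM, SD, n = 3), Rrm2 (65.0 ± 7.24 FPKM) and Mcm5 (47.3 ± 0.680 FPKM), and the lowest was Fen1 (1.74 ± 0.196 FPKM). Most of the Fen1 exon bases are shared with another gene, so its low value may come from counting, which was not tested. The coefficient of variation between the 3 libraries had a median over the members of 4.42% in NC siRNA, 4.94% in SFRP2 siRNA and 8.93% in RAB6A siRNA. Within the RAB6A siRNA group the libraries did not scatter evenly: of the 44 members that fell, replicate 3 held the highest value of its group for 35 and replicate 1 the lowest for 30.

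**Figure D2:**
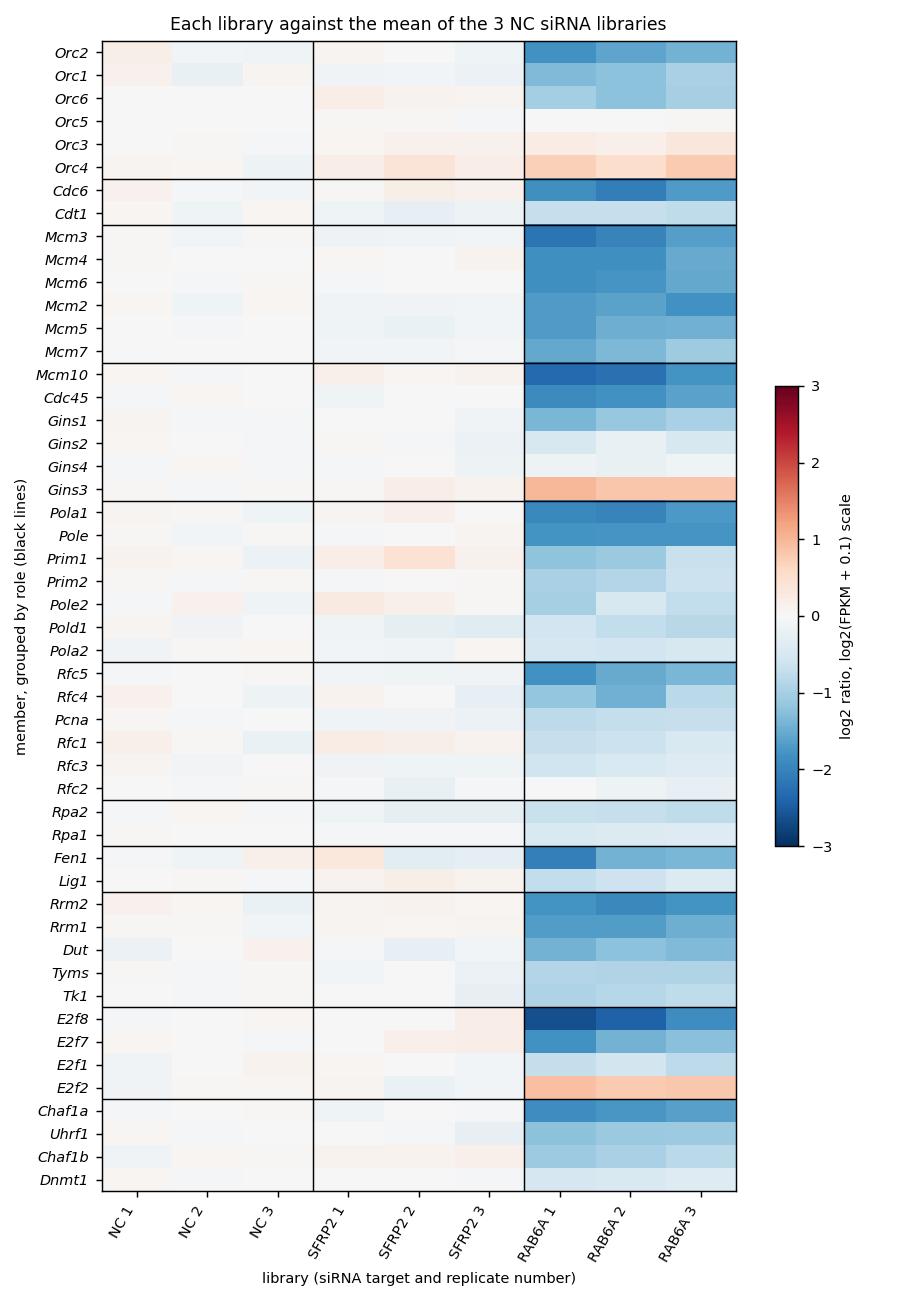
Log2 ratio of each of the 9 libraries (columns) to the mean of the 3 NC siRNA libraries, on the log2(FPKM + 0.1) scale, for the 50 members (rows, grouped by role between black lines and ordered within a role by log2 fold change). Blue is lower and red higher: the RAB6A siRNA columns are blue for the 44 members that fell and red for Orc3, Orc4, Gins3 and E2f2, while the SFRP2 siRNA columns stay near white, between -0.26 and 0.27 as group averages.

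Promoters were searched for the sequence that E2F proteins are known to bind, because E2F control is the textbook link between the members. The 4 octamers TTTCCCGC, TTTCGCGC, TTTGCCGC and TTTGGCGC were looked for on both strands, overlaps allowed, in RefSeq promoters of build GRCm38.p6 that run from 250 bases before to 50 bases after a start site. Of the 50 members, 43 matched a promoter by symbol, and 18 of their 54 promoters (33.3%) held an octamer, against 2.26% of all 32851 promoters. Windows of 100 bases are shown for the 4 members with the lowest log2 fold change among those that fell and have an octamer wholly before the start, followed by the 2 members that rose and have 1 there, with the octamers in capitals.
Pola1, chrX:93632240-93632339, minus strand: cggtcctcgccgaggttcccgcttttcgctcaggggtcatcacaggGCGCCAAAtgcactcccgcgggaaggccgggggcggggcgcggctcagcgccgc
Cdc6, chr11:98907967-98908066, plus strand: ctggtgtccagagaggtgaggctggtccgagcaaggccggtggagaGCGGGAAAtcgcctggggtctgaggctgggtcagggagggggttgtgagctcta
Mcm6, chr1:128359731-128359830, minus strand: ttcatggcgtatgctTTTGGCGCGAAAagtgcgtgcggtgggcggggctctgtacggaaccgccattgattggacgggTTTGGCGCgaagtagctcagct
Mcm5, chr8:75109312-75109411, plus strand: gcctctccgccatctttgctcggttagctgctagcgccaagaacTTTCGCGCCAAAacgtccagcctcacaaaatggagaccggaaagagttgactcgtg
Orc3, chr4:34614943-34615042, minus strand: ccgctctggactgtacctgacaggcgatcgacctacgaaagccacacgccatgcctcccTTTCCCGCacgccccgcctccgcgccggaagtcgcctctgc
Gins3, chr8:95633459-95633558, plus strand: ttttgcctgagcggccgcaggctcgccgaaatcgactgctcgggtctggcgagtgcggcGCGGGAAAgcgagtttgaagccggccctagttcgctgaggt

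In Mcm6 and Mcm5 the capitals run longer than 8 bases because octamers on opposite strands overlap there, and Mcm6 holds a further octamer 47 bases before its start. The octamer began 138 bases before the start in both Pola1 and Cdc6 and 41 bases before it in both Orc3 and Gins3. It was present in members of either direction: in 15 of the 38 matched genes that fell and in 3 of the 4 that rose (Orc3, Gins3 and E2f2), while E2f8 and Mcm10, the members with the lowest log2 fold changes, held none in these windows. The median log2 fold change was -0.94 over the 18 genes with an octamer and -1.08 over the 25 matched genes without. The CCAAT box, another element of cell cycle promoters, was in 59.3% of the members' promoters and in 37.4% of all promoters. These counts describe letters in a window and were not tested.

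At the origin, the 6 subunits of the recognition complex split. Orc1, Orc2 and Orc6 fell, Orc3 and Orc4 rose, and Orc5 did not pass the test. Orc2 read 19.2, 16.0 and 15.5 FPKM in NC siRNA and 4.72, 5.57 and 6.31 FPKM in RAB6A siRNA. The groups were far apart, with a log2 fold change of -1.60 (SE 0.125, adjusted p = 2e-05, limma), although 29.8% of the Orc2 exon bases are shared with Nif3l1 on the other strand. Orc4, an ATP-binding subunit, moved the other way, from 5.24, 5.13 and 4.45 FPKM to 8.13, 7.17 and 8.57 FPKM, again without overlap (log2 fold change 0.68, SE 0.096, adjusted p = 0.00042, limma). Orc3 was 1.18-fold of its NC siRNA mean at 12.3 ± 0.761 FPKM (SD, n = 3) (log2 fold change 0.24, SE 0.066, adjusted p = 0.012, limma), and 0.46 with GC content and gene length corrected for. Orc5 was 5.50 ± 0.0764 FPKM in NC siRNA and 5.51 ± 0.101 FPKM in RAB6A siRNA, with a 95% interval of the log2 fold change from -0.14 to 0.14. The same correction moved Orc5 to 0.23 and called it higher (adjusted p = 0.011, limma), as it did in 2 of 18 alternative analyses. Orc1, the subunit whose level follows the cell cycle, fell by 1.17 and Orc6 by 1.08 on the log2 scale. The order of the subunits by FPKM changed with this: Orc2 was the highest and Orc4 the lowest in NC siRNA, whereas Orc3 and Orc4 led and Orc1 was last in RAB6A siRNA. Orc1, Orc5 and Orc4, the last of that order in NC siRNA, lay within 4.45 to 6.34 FPKM and overlapped, as did Orc2 and Orc5 in RAB6A siRNA. The ratio of Orc3 to Orc2, a pair chosen after the values were seen, was 0.543 to 0.665 in the NC siRNA libraries and 2.08 to 2.58 in the RAB6A siRNA libraries.

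The licensing factors Cdc6 and Cdt1, which bring the helicase to the origin, both fell. Cdc6 read 6.52, 5.65 and 5.58 FPKM in NC siRNA and 1.58, 1.32 and 1.75 FPKM in RAB6A siRNA, 3.82-fold lower on average (log2 fold change -1.87, SE 0.120, adjusted p = 8.4e-06, limma). Cdt1 was less affected, at 31.7, 27.7 and 31.3 FPKM against 18.7, 18.8 and 17.7 FPKM (log2 fold change -0.71, SE 0.069, adjusted p = 5.7e-05, limma). In neither gene did the groups overlap.

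All 6 subunits of the MCM helicase fell by more than 1 on the log2 scale, the only one of the 11 roles of which this was true. Mcm3 had the lowest log2 fold change of the 6: it read 47.4, 43.2 and 47.4 FPKM in NC siRNA and 9.97, 11.4 and 14.5 FPKM in RAB6A siRNA (-1.95, SE 0.129, adjusted p = 9.3e-06, limma). Mcm7 had the highest, with 18.0, 18.5 and 18.2 FPKM against 6.18, 7.11 and 8.67 FPKM (-1.32, SE 0.115, adjusted p = 3.4e-05, limma). The other subunits lay between them, at -1.73 for Mcm4, -1.71 for Mcm6, -1.70 for Mcm2 and -1.53 for Mcm5. Added together, the 6 subunits stood at 195 to 204 FPKM in NC siRNA, 188 to 197 FPKM in SFRP2 siRNA and 55.8 to 70.3 FPKM in RAB6A siRNA. Unlike in the origin recognition complex, their order by FPKM was the same in NC siRNA and RAB6A siRNA (Mcm5, Mcm3, Mcm4, Mcm6, Mcm7, Mcm2), although neighbours such as Mcm3 and Mcm4 in RAB6A siRNA (12.0 ± 2.30 and 11.7 ± 1.56 FPKM) did not differ beyond their spread. Mcm7 and Mcm2, the subunits of lowest FPKM, took 9.08% and 7.22% of the summed FPKM in NC siRNA and 11.7% and 6.99% in RAB6A siRNA. Mcm2 had the longest merged exons of the 6 (6956 bases, 4426 for Mcm7). By reads in NC siRNA it stood above Mcm7, at 4341 to 4453 against 3314 to 3857, so its last place depends on that length. The ratio of Mcm3 to Mcm7, also chosen after the values were seen, was 2.34 to 2.63 in NC siRNA and 1.61 to 1.67 in RAB6A siRNA.

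**Figure D3:**
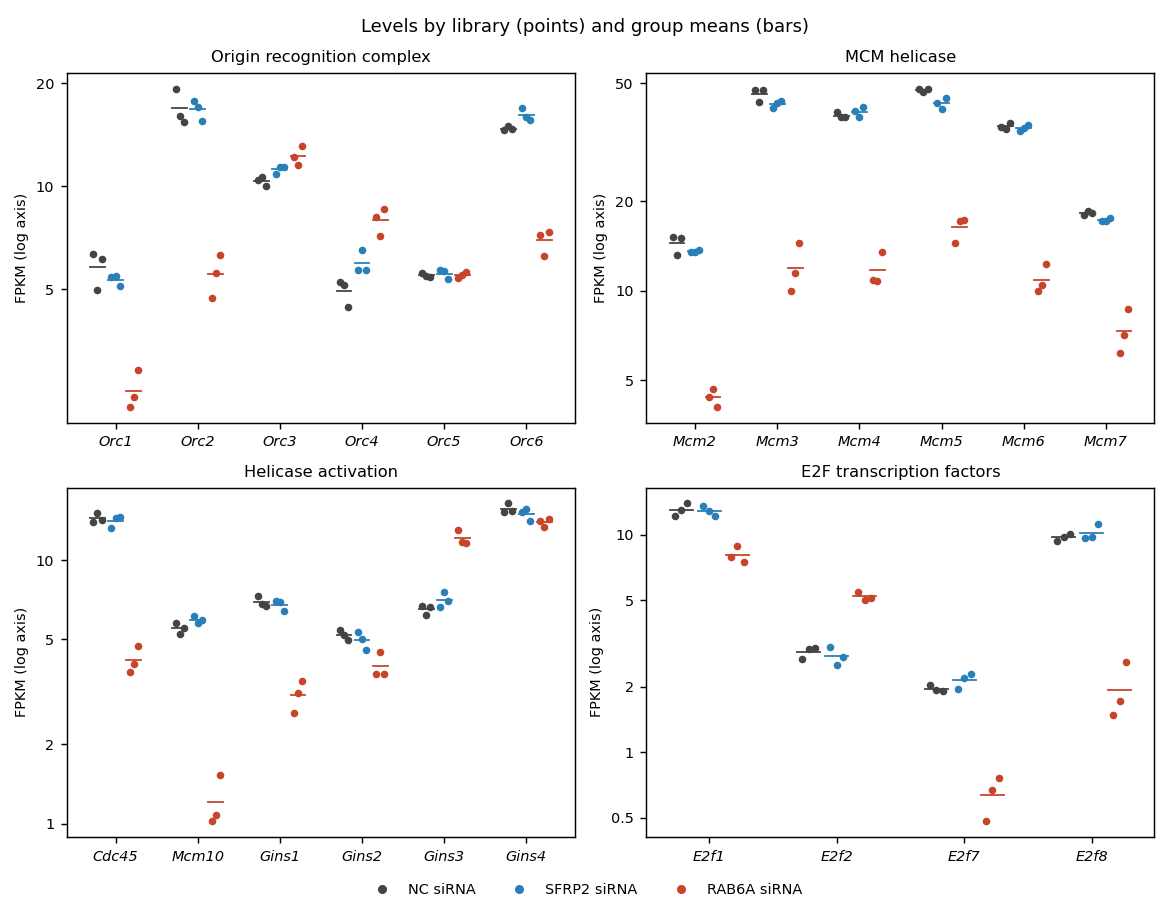
FPKM on a log axis in every library (points) with the group mean (bar) for the subunits of the origin recognition complex, the MCM helicase, the helicase activation genes and the E2F transcription factors, in NC siRNA (grey), SFRP2 siRNA (blue) and RAB6A siRNA (red). The red points lie below the grey ones for all 6 MCM subunits, above them for Orc3, Orc4, Gins3 and E2f2, and among them for Orc5.

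Helicase activation split again, and here too within a single complex. Mcm10, which helps the helicase start to unwind, fell from 5.76, 5.26 and 5.53 FPKM to 1.02, 1.08 and 1.53 FPKM, 4.55-fold (log2 fold change -2.12, SE 0.148, adjusted p = 1.2e-05, limma). Cdc45, which travels with the helicase, fell by 1.77 on the log2 scale. Of the 4 GINS subunits, Gins1 fell by 1.16 and Gins2 by 0.39, and Gins3 rose: it read 6.69, 6.22 and 6.63 FPKM in NC siRNA and 13.0, 11.7 and 11.6 FPKM in RAB6A siRNA. That was the highest log2 fold change of all 50 members (0.89, SE 0.069, adjusted p = 2e-05, limma), and the groups lay wide apart. The ratio of Gins3 to Gins1, chosen after the values were seen, was 0.911 to 0.992 in NC siRNA and 3.34 to 4.94 in RAB6A siRNA. Gins4 was called lower at -0.17 (SE 0.060, adjusted p = 0.035, limma), a call that held in 9 of 18 alternative analyses, with adjusted p up to 0.41 in the others. The call of Gins2 held in 16 of 18 and was lost, at an adjusted p of up to 0.13, when GC content and gene length were corrected for, and 67.3% of its exon bases are shared with Gse1 on the other strand.

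All 7 polymerase and primase genes fell, by 0.52 to 1.89 on the log2 scale. The catalytic subunit of polymerase alpha, Pola1, fell furthest: it read 6.24, 6.00 and 5.38 FPKM in NC siRNA and 1.45, 1.39 and 1.71 FPKM in RAB6A siRNA (-1.89, SE 0.106, adjusted p = 4.7e-06, limma). Its regulatory partner Pola2 fell least, from 9.64, 10.7 and 10.8 FPKM to 7.24, 6.91 and 7.41 FPKM (-0.52, SE 0.069, adjusted p = 0.00029, limma). Both genes were without overlap between groups, but the ratio of Pola2 to Pola1, chosen after the values were seen, was 1.54 to 2.00 in NC siRNA and 4.34 to 4.98 in RAB6A siRNA. The primase subunits Prim1 and Prim2 had log2 fold changes of -0.99 and -0.83. Of polymerase epsilon, the leading strand enzyme, the catalytic gene Pole fell by 1.78 and the accessory gene Pole2 by 0.74, and Pold1, the catalytic subunit of polymerase delta, fell by 0.71.

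Of the 6 genes of the sliding clamp and its loader 5 fell, with a median log2 fold change of -0.66. Pcna itself fell from 105 to 110 FPKM in the NC siRNA libraries to 62.8 to 66.9 FPKM in RAB6A siRNA (log2 fold change -0.73, SE 0.053, adjusted p = 1.4e-05, limma). In the clamp loader, Rfc5 had the lowest log2 fold change: 10.4, 10.4 and 10.8 FPKM in NC siRNA against 2.93, 3.61 and 3.99 FPKM in RAB6A siRNA (-1.57, SE 0.110, adjusted p = 1.2e-05, limma). Rfc2 had the highest and overlapped between groups, at 6.50, 6.33 and 6.63 FPKM against 6.45, 5.84 and 5.45 FPKM (-0.13, 95% interval -0.32 to 0.05, adjusted p = 0.15, limma), and with GC content and gene length corrected for its log2 fold change was 0.14, at an adjusted p of 0.15. Rfc4, Rfc1 and Rfc3 lay between, at -1.13, -0.58 and -0.48, and the calls of Rfc3 and Rfc1 held in 16 and 17 of 18 alternative analyses, being lost with that correction (Rfc3 at -0.16) or with it and the replicate block (Rfc1 at -0.27). The single-strand binding genes Rpa1 and Rpa2 fell too. Rpa2 read 11.05, 11.8 and 10.9 FPKM in NC siRNA and 7.11, 6.96 and 6.65 FPKM in RAB6A siRNA (-0.70, SE 0.062, adjusted p = 3.9e-05, limma). Rpa1 read 16.6, 16.1 and 16.1 FPKM against 11.9, 12.2 and 12.5 FPKM (-0.42, SE 0.053, adjusted p = 0.00023, limma), and with GC content and gene length corrected for it was -0.11, at an adjusted p of 0.063. No value of either gene overlapped between the groups.

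Lagging strand fragments are trimmed by Fen1 and joined by Lig1, and both genes fell. Fen1 read 1.68, 1.58 and 1.96 FPKM in NC siRNA and 0.341, 0.589 and 0.618 FPKM in RAB6A siRNA (log2 fold change -1.61, SE 0.226, adjusted p = 0.0004, limma). This was the lowest FPKM of any member, and 78.8% of the Fen1 exon bases are also annotated to the antisense gene Gm10143. Reads in these bases may have been left out of the count, which was not tested. Lig1 read 17.6, 18.1 and 17.0 FPKM against 10.5, 11.3 and 13.2 FPKM (-0.59, SE 0.090, adjusted p = 0.00062, limma), with the groups apart.

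The 5 genes that supply deoxynucleotides fell together, by 0.85 to 1.84 on the log2 scale. Rrm2, the subunit that limits ribonucleotide reductase in S phase, went from 70.6, 67.5 and 56.8 FPKM to 18.5, 17.0 and 18.6 FPKM (-1.84, SE 0.090, adjusted p = 2.9e-06, limma). Its partner Rrm1 fell by 1.61. The ratio of Rrm1 to Rrm2, chosen after the values were seen, was 0.286 to 0.328 in NC siRNA and 0.327 to 0.380 in RAB6A siRNA. The groups overlapped only through NC siRNA replicate 3 (0.328) and RAB6A siRNA replicate 1 (0.327). Tk1, the thymidine salvage kinase, fell least: it read 6.26, 6.16 and 6.40 FPKM in NC siRNA and 3.28, 3.42 and 3.65 FPKM in RAB6A siRNA (-0.85, SE 0.070, adjusted p = 2.6e-05, limma). Dut, which removes dUTP, and Tyms, which makes dTMP, lay between at -1.31 and -0.90.

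Of the 4 E2F genes among the members, the repressors E2f7 and E2f8 and the activator E2f1 fell and the activator E2f2 rose. E2f8 had the lowest log2 fold change of all members: 9.41, 9.78 and 10.1 FPKM in NC siRNA against 1.49, 1.73 and 2.61 FPKM in RAB6A siRNA, 5.03-fold (-2.31, SE 0.183, adjusted p = 2.1e-05, limma). E2f7 fell by 1.50 and E2f1 by 0.68. E2f2 read 2.68, 2.99 and 3.02 FPKM in NC siRNA and 5.47, 5.03 and 5.13 FPKM in RAB6A siRNA (0.83, SE 0.080, adjusted p = 5.6e-05, limma), all 3 libraries above all 3. By FPKM, E2f8 stood next to E2f1 in NC siRNA and behind both E2f1 and E2f2 in RAB6A siRNA. The ratio of E2f2 to E2f8, chosen after the values were seen, was 0.285 to 0.306 in NC siRNA and 1.96 to 3.68 in RAB6A siRNA.

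The chromatin genes of the list, which deposit histones behind the fork (Chaf1a, Chaf1b) and copy DNA methylation (Uhrf1, Dnmt1), all fell. Chaf1a read 6.77, 6.89 and 7.09 FPKM in NC siRNA and 1.84, 1.98 and 2.17 FPKM in RAB6A siRNA (log2 fold change -1.75, SE 0.082, adjusted p = 2.6e-06, limma), with 52.5% of its exon bases shared with Ubxn6 on the other strand. Dnmt1 fell least, from 32.0, 29.4 and 30.8 FPKM to 21.8, 22.4 and 23.4 FPKM (-0.45, SE 0.058, adjusted p = 0.00026, limma). Uhrf1 fell by 1.15 and Chaf1b by 0.95. Where exons are shared, reads of the 2 genes may have been mixed or left out of the count. The sources used here do not say that counting used the strand. Without the 12 members that share at least 10% of their exon bases with another gene or have a near-identical copy elsewhere (Mcm7, Pcna and Uhrf1), 33 of 38 fell and 4 rose, with a median log2 fold change of -0.87.

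**Figure D4:**
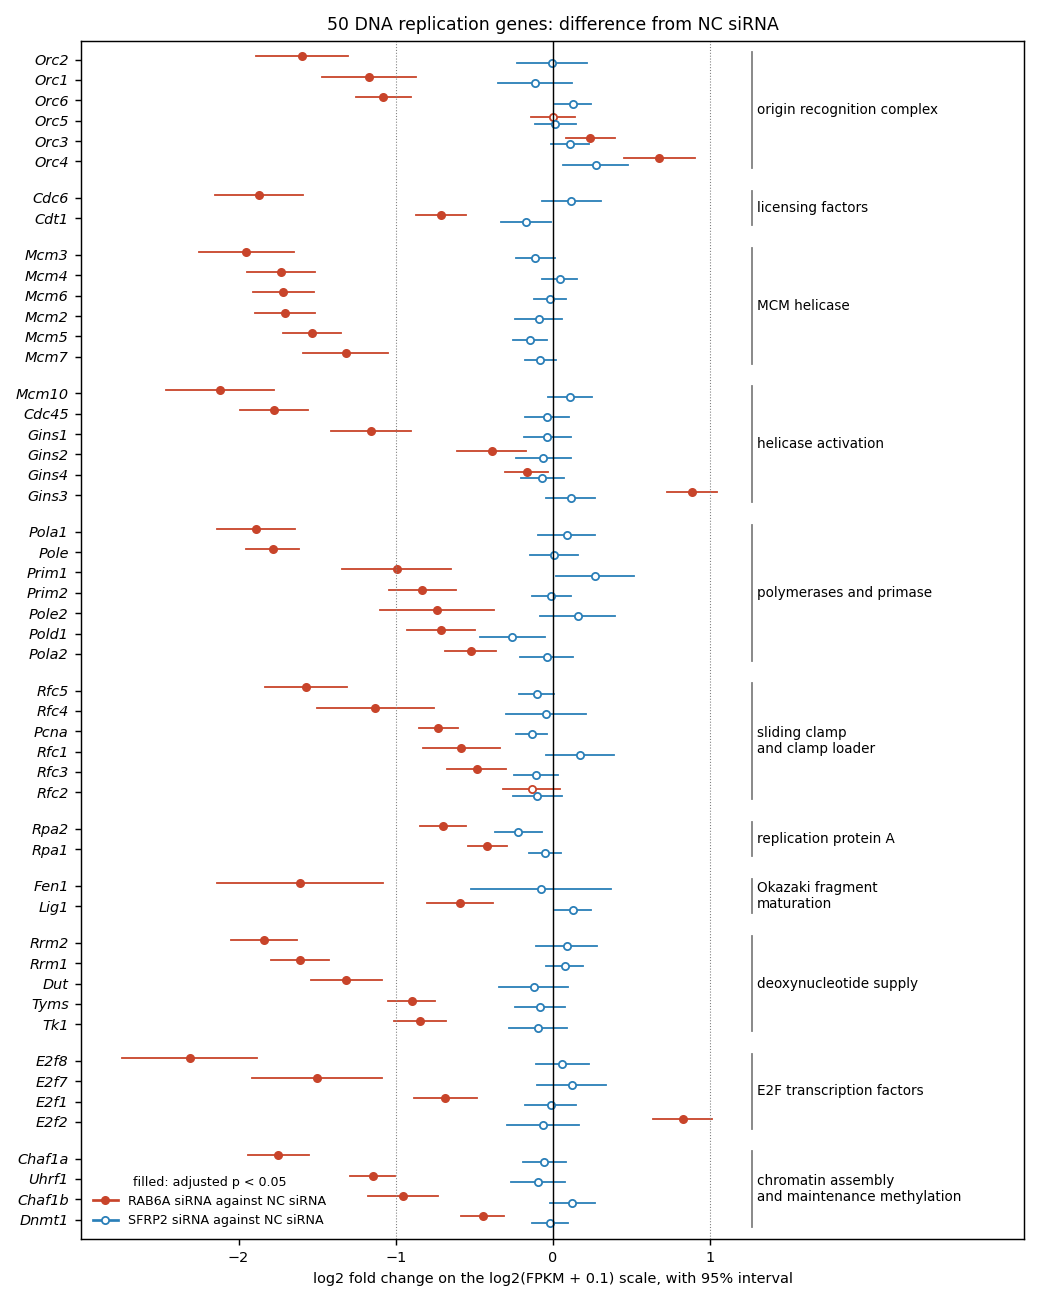
Log2 fold change on the log2(FPKM + 0.1) scale (horizontal axis) with its 95% interval for each of the 50 members (rows, grouped by role), for RAB6A siRNA against NC siRNA (red) and SFRP2 siRNA against NC siRNA (blue), from limma fits over 6 libraries each; filled points had an adjusted p under 0.05 and dotted lines mark -1 and 1. The red points run from -2.31 (E2f8) to 0.89 (Gins3), and the blue points, none of them filled, lie between -0.26 and 0.27.

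The second comparison asked the same of SFRP2 siRNA, and no member passed the test. Of the 50 members 0 were called higher and 0 lower, against 0% and 0% of the 12017 genes tested by limma, and the smallest adjusted p of a member was 0.18 (Rpa2). The paper, using DESeq2, reported genes changed in both directions by SFRP2 siRNA in RAW264.7 cells. The 0% given here therefore holds for limma on FPKM. At an unadjusted p under 0.05, 4 members were higher (7.73% of all genes) and 5 lower (10.7% of all genes), that is 9 of 50 against 18.5% of all genes. The 3 SFRP2 siRNA libraries lay wholly below NC siRNA for 8 members (13.9% of all genes) and wholly above for 8 (10.9%). Log2 fold changes ran from -0.26 (Pold1) to 0.27 (Orc4), with a median of -0.03 beside -0.01 over all genes. For the MCM helicase the 95% intervals of the log2 fold change reached from -0.25 for Mcm5 at the lowest to 0.15 for Mcm4 at the highest. With voom on the recovered reads, 7 genes were called higher and 35 lower in the whole table, and 0 of them were members.

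The members with the smallest unadjusted p in this comparison illustrate the size of what was measured. Rpa2 read 10.4, 9.36 and 9.27 FPKM in SFRP2 siRNA against 11.05, 11.8 and 10.9 FPKM in NC siRNA (log2 fold change -0.22, SE 0.064, adjusted p = 0.18, limma). Pcna, the clamp, read 98.6, 100.2 and 96.1 FPKM against 110, 105 and 108 FPKM (-0.14, SE 0.042, adjusted p = 0.20, limma). Mcm5 read 42.9, 41.0 and 44.6 FPKM against 47.7, 46.5 and 47.7 FPKM (-0.14, SE 0.046, adjusted p = 0.20, limma). In these 3 genes the groups did not overlap, yet the differences did not pass the test once adjusted over the table. In the other direction, Orc4 read 5.70, 6.53 and 5.71 FPKM (log2 fold change 0.27, SE 0.089, adjusted p = 0.20, limma). Lig1 read 19.0, 19.7 and 18.9 FPKM (0.13, SE 0.047, adjusted p = 0.23, limma). Orc6 read 16.9, 15.9 and 15.6 FPKM against 14.6, 15.0 and 14.7 FPKM in NC siRNA (0.13, SE 0.049, adjusted p = 0.24, limma). All 3 genes stood above NC siRNA in every library.

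The third comparison set the 2 targeting siRNAs against each other. It uses the RAB6A siRNA libraries of the first comparison and the SFRP2 siRNA libraries of the second, so its values are given side by side with theirs and are no separate evidence. Of the 50 members 43 were called lower in RAB6A siRNA (35.8% of the 12764 genes tested) and 3 higher (37.6%), namely Orc4, Gins3 and E2f2. With a log2 fold change below -1 in addition, 27 were lower (13.3% of all genes). The libraries lay wholly below for 43 members (37.7%) and wholly above for 4 (39.3%). The median was -1.07, against 0.03 over all genes tested. Rrm2 had the smallest p, with 68.7, 70.4 and 67.2 FPKM in SFRP2 siRNA against the 17.0 to 18.6 FPKM of RAB6A siRNA (log2 fold change -1.93, SE 0.058, adjusted p = 1.8e-06, limma). Pole, the leading strand polymerase, read 6.49, 6.77 and 7.17 FPKM against 1.88, 1.90 and 1.92 FPKM (-1.79, SE 0.073, adjusted p = 3.1e-06, limma). Mcm2, a helicase subunit, read 13.5, 13.5 and 13.7 FPKM against 4.39, 4.66 and 4.07 FPKM (-1.61, SE 0.068, adjusted p = 3.5e-06, limma). The members that rose against NC siRNA were again the higher ones: Gins3 at 0.77 (SE 0.075, adjusted p = 8.4e-05, limma), E2f2 at 0.89 (SE 0.092, adjusted p = 0.00011, limma) and Orc4 at 0.41 (SE 0.093, adjusted p = 0.0057, limma). Orc3 was at 0.13 and Gins4 at -0.10, and neither passed the test here. With GC content and gene length corrected for, Orc3 was at 0.50 (adjusted p = 0.00013, limma), Orc5 at 0.35 (adjusted p = 0.0016, limma) and Gins4 at -0.30 (adjusted p = 0.0081, limma), while the calls of Gins2, Rfc3 and Rpa1 were lost.

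Further replication genes outside the 50, listed by role, were read from the same fits for RAB6A siRNA against NC siRNA, in which 36.5% of all genes fell and 37.6% rose. Of 22 tested genes of the replisome and fork, 16 fell and 3 rose, with a median log2 fold change of -0.71. Exo1, a nuclease that also serves mismatch repair, had the lowest value, at 3.09, 2.62 and 2.71 FPKM against 0.359, 0.427 and 0.442 FPKM (-2.51, SE 0.145, adjusted p = 5.3e-06, limma). Pold4, the smallest subunit of polymerase delta, rose from 4.89, 4.30 and 5.62 FPKM to 12.7, 10.9 and 10.3 FPKM (1.18, SE 0.117, adjusted p = 6.4e-05, limma), in contrast to Pold1 of the same enzyme. Of 15 genes that control licensing and firing, 12 fell and 1 rose. Ccne2, cyclin E2, went from 12.7, 12.3 and 10.2 FPKM to 1.40, 1.35 and 1.38 FPKM (-2.99, SE 0.098, adjusted p = 1.1e-06, limma), and its kinase partner Cdk2 was the gene that rose (0.34, SE 0.086, adjusted p = 0.0085, limma). In both lists the groups of the named genes did not overlap. Of 15 further genes of nucleotide supply and S phase chromatin, 12 fell and 2 rose, ranging from Shmt1 (-2.13, SE 0.083, adjusted p = 1.5e-06, limma), which feeds thymidylate synthesis, to Npat (0.32, SE 0.094, adjusted p = 0.016, limma), a coactivator of histone genes.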

How the data were processed

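RNA from RAW264.7 cells was sequenced in 9 libraries, 3 for each of NC siRNA, SFRP2 siRNA and RAB6A siRNA, and groups were taken from the sample labels. The authors deposited 1 table of FPKM per gene and library, and the submitters' processing notes name HISAT2 for alignment and featureCounts of the Subread package for counting. The genome build, the annotation and the strand setting of the counting were not given in the sources used here. The authors tested counts with DESeq2, which could not be applied to FPKM. FPKM remove sequencing depth and gene length, so a fall in many abundant genes raises the values of the others.

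Of 28137 identifiers, 27533 were named in GENCODE M21 and 604 were not. Each comparison used its own 6 libraries and kept genes averaging 0.5 FPKM or more across them. These were tested with limma 3.58.1 in R 4.3.3 on log2(FPKM + 0.1), by group only, two-sided, with an intensity trend and Benjamini-Hochberg adjustment over all genes tested, and were called at an adjusted p under 0.05. Fold changes are on that scale, which understates those of low genes. The code was tested on simulated data. Whole reads were recovered from the steps between low FPKM values for depth and for an alternative count-based fit with voom, and came out whole within 0.03 reads in all 9 libraries for 98.3% of named genes and for 49 of 50 members. These reads are not unique molecules, and no interval here covers more than the spread between libraries. Near-identical copies were searched with BLAST 2.17.0.

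The members, the lists and the rule for named genes were chosen with earlier results of these data known. That rule gave full values to the members of highest and lowest log2 fold change in each of 11 roles for RAB6A siRNA against NC siRNA, to the 3 of smallest unadjusted p in each direction for the other comparisons, and to the extremes of each other list. Values of other members, and the ratios within complexes, were added after the values were seen. Lin54, Cd3e, Ms4a1 and Ly6g had no row under their symbol. Promoter sequences are from RefSeq, build GRCm38.p6. Alternatives covered the pseudocount, the filter, the scaling, the trend, a replicate block, a single fit of all 9 libraries, voom, GC content and exon length as corrected quantities, and leaving out each library.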

Additional observations from a re-analysis of the deposited data

How the results depend on the processing

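In 18 alternative analyses per comparison, RAB6A siRNA against NC siRNA called 40 to 44 members lower and 4 to 5 higher, RAB6A siRNA against SFRP2 siRNA 41 to 43 lower and 3 to 5 higher, and SFRP2 siRNA against NC siRNA 0. The median log2 fold change of the members against NC siRNA moved to -0.86 with a pseudocount of 1, to -0.78 with GC content and gene length corrected for, and to between -1.14 (without RAB6A siRNA replicate 3) and -0.96 (without RAB6A siRNA replicate 2) when 1 library was left out. Against SFRP2 siRNA it moved to -0.87 both with a pseudocount of 1 and with the GC and length correction, to -1.10 with median-of-ratios scaling, to -1.12 with quantile normalization, and to between -1.15 and -1.01 without 1 library. The GC and length correction called 5 members higher against SFRP2 siRNA, and it turned Rfc2 to 0.14 against NC siRNA (adjusted p = 0.15, limma). It also moved the median over all genes tested, from 0.03 to 0.09 against NC siRNA and from 0.03 to 0.10 against SFRP2 siRNA. The cause was not tested. Rfc2 was called lower without RAB6A siRNA replicate 1 (-0.20, adjusted p = 0.048, limma).

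The labels do not say if equal replicate numbers pair the libraries. Deviations from group means correlated at -0.08 to 0.05 between same-numbered libraries and at -0.12 to 0.08 between the others. With 3 libraries a group, these correlations cannot show or exclude pairing. With the replicate block 43 members were lower against NC siRNA. In SFRP2 siRNA against NC siRNA the block moved the genes at an unadjusted p under 0.05 from 2220 to 2988. The smallest adjusted p was 0.053 with the block and 0.14 without it (limma). With the replicate block and the GC and length correction together, 40 were lower, the medians were again -0.78 and -0.87, 5 members were higher against SFRP2 siRNA, and Rfc2 was at 0.14.

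Sfrp2 was barely detected in any group, NC siRNA included, with 2 to 4 reads a library at depths of 32758733 to 47149263 reads. Having 3 libraries a group limits the precision of each fold change. Where 1 library was left out, the comparison rested on 5.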

Other observations

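Gene groups next to replication were read from the same fits of RAB6A siRNA against NC siRNA, in which 36.5% of all genes fell and 37.6% rose. Of 14 mitosis markers 13 fell and 1 rose, with a median log2 fold change of -1.37, and their summed level was 292 to 322 FPKM in NC siRNA, 333 to 338 FPKM in SFRP2 siRNA and 123 to 148 FPKM in RAB6A siRNA. Plk1, a mitotic kinase, was lowest (-2.43) and Cenpa, the histone of centromeres, was the marker that rose (1.10, adjusted p = 3.9e-06, limma). Of 12 fork checkpoint genes 10 fell and 0 rose. The lowest was Clspn (-2.03), which carries the signal from ATR to Chk1, and the highest was Atrip at 0.18, which did not pass the test (adjusted p = 0.26, limma).

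Among 11 tested genes of the other E2F and pocket protein list, 6 fell and 4 rose, a share of rising genes near that over all genes. Rbl1 (p107), which is itself made in S phase, had a log2 fold change of -1.81. Rbl2 (p130), which gathers with E2F in resting cells, read 1.50, 1.21 and 1.36 FPKM in NC siRNA and 5.21, 4.56 and 5.26 FPKM in RAB6A siRNA (1.81), and Rb1 was at 1.51. Lin37 and Lin52 were the other genes that rose, at 0.96 and 0.74. Besides Rbl1, the genes of this list that fell are not named here. The median log2 fold change of the 11 genes was -0.60. In SFRP2 siRNA against NC siRNA 0 genes of these lists were called by limma. At an unadjusted p under 0.05, 6 mitosis markers, 4 genes of the E2F and pocket protein list and 0 checkpoint genes were higher, out of 14, 12 and 12 tested, and 0 were lower. Over all genes 7.73% were higher and 10.7% lower at that p.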
